A study of Mus musculus with 4 samples.

Results

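The 10 keratin genes described here were followed in single cells of the mouse small-intestinal epithelium: Krt8, Krt18, Krt19, Krt20, Krt7 and Krt23, which are known from simple epithelia, and Krt14, Krt5, Krt4 and Krt80, which are known from stratified or other multilayered epithelia. The members were given as a list of symbols, and all 10 had a column among the 25289 genes of each table, beside 43 other keratin columns. The libraries were made with inDrop v2, a droplet method that tags RNA from single cells, from C57BL/6J adult mice. Before capture, 5000 cells per condition had been sorted for EpCAM and against CD45, TER119 and DAPI. The 2 control libraries came from Lats1fl/fl Lats2fl/fl mice, whose labelled genotype has both Lats genes flanked by loxP and names no Cre recombinase. The 2 Lats-deleted libraries came from Lrig1-CreERT2 Lats1fl/fl Lats2fl/fl mice, which also carry a tamoxifen-inducible Cre driven by Lrig1, a gene of intestinal stem and progenitor cells. Mice of both groups received tamoxifen (2 mg, into the peritoneum) and their cells were collected on day 7. It is not stated whether the libraries of a group are separate animals, so a p-value speaks of the spread between libraries, and that spread may be technical.

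Keratins build the intermediate filaments of epithelial cells. A filament needs a type I and a type II keratin, here Krt14, Krt18, Krt19, Krt20 and Krt23 (type I) and Krt4, Krt5, Krt7, Krt8 and Krt80 (type II). In the intestine Krt8 is the usual type II partner of Krt18, Krt19 and Krt20, and Krt20 is known as a keratin of mature villus cells. Krt7 is a keratin of ducts, bladder and other simple epithelia and is scarce in normal intestine. Krt5 and Krt14 form the pair of basal layers in skin and other stratified epithelia, and Krt4 belongs to the suprabasal layers of oesophagus and other wet stratified linings. The Hippo kinases LATS1 and LATS2 restrain the coactivators YAP and TAZ, which act on DNA through TEAD factors.

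Barcodes entered the analysis if they had 1000 or more counts, 300 or more detected genes and no more than 30% of counts from mitochondrial genes. This left 774 and 515 control cells and 726 and 1289 Lats-deleted cells, in the order of the replicate numbers used throughout. Kept cells held 1603796, 1228504, 3562565 and 5826856 counts, with medians of 1708, 1995, 3716 and 3848 counts per cell. Median mitochondrial shares were 9.55% and 6.84% in the controls and 3.64% and 3.90% in the Lats-deleted libraries. Pairs of libraries shared 4 to 12 kept barcodes. Lats1 was measured at 20.6 and 32.6 CPM (counts scaled to a total of 1000000 per library) in the controls and at 7.58 and 9.78 after Lats deletion, and Lats2 at 8.11 and 9.77 against 29.8 and 21.3. Counts that start at the 3' end of a transcript need not cover the deleted exons, so these levels do not check the deletion. Cells of 3 clusters carried markers of other tissues, and these clusters held no control cell. Cluster 2, which was stomach-like with Tff1, Gkn1 and Gkn2, held 355 cells of Lats-deleted 2 alone. Cluster 1, an unnamed cluster led by Spp1, Pgc, Muc6 and Gkn3, held 5 and 374 Lats-deleted cells. It also had 11 of the 12 cycling progenitor markers raised, but its leading genes held stomach markers and none of these. Cluster 12, which was stromal-like with Dcn and Col3a1 and also had all 7 mesothelial markers raised, held 71 and 8. The 8 stomach markers with a column summed to 58.6, 31.7, 11.2 and 9348 CPM in the 4 libraries, and the 9 stromal markers to 50.5, 39.9, 1282 and 145 CPM. Results below are given with and without these 3 clusters where they differ. No doublet caller was run.

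The members lie in the 2 keratin gene clusters of the mouse genome, as placed by the GENCODE M21 annotation on GRCm38. The type II genes and Krt18 are on chromosome 15: Krt80 at chr15:101347444-101370162 (minus strand), Krt7 at chr15:101411043-101430313 (plus strand), Krt5 at chr15:101707070-101712898 (minus), Krt4 at chr15:101918535-101924735 (minus), Krt8 at chr15:101996698-102004482 (minus) and Krt18 at chr15:102028180-102032027 (plus). Krt18 is thus a type I gene beside its partner, 23697 bases from Krt8 with no annotated gene between them. The other type I genes are on chromosome 11, all on the minus strand: Krt20 at chr11:99428403-99438150, Krt23 at chr11:99477974-99493137, Krt19 at chr11:100140810-100148665 and Krt14 at chr11:100203162-100207548. Antisense or long non-coding genes overlap Krt8, Krt7 and Krt80 on the other strand, and whether the counting used strand is not given in the sources used here. In the last 500 bases of the Krt14 transcript, 17.2% of the 31-base words also occur in other genes, mostly Krt17. Krt17 itself had 0, 0, 7 and 8 counts in the 4 libraries, and Krt16 had 0, 0, 6 and 6. For Krt18 the share was 10.4%, mostly with Gm5200, and for Krt7 it was 9.04%, spread over 431 genes. Krt8, Krt20, Krt23, Krt4 and Krt5 shared no such word. Reads of Krt14, Krt18 and Krt7 may therefore have been split or lost in part, as how shared reads were handled is not given in the sources used here.

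The sequences before the start are printed for 3 members: Krt7 and Krt18 as 2 of the simple keratins that rose, and Krt20 as the simple keratin that did not. RefSeq promoter sequences (GRCm38.p6) were matched for 7 of the 10 members: Krt8, Krt7, Krt18, Krt20, Krt23, Krt5 and Krt14. Each line gives the 250 bases before the start that RefSeq annotates, 5′ to 3′ on the gene's strand. GENCODE places some starts elsewhere: the RefSeq start of Krt7 is 1 base past that of a coding GENCODE transcript but 1360 bases inside the GENCODE gene, which has longer transcripts, and that of Krt18 is 36 bases inside the gene. For Krt20 it lies 3 bases before the GENCODE start. The RefSeq window of Krt14 precedes an internal start, 1518 bases past the start of the coding GENCODE transcript and within an intron of it, so it is not printed as a promoter. Capitals mark the letters GGAATG, a core word of TEAD binding, on either strand, which reads CATTCC when on the opposite strand.
Krt7 (chr15:101412153-101412402, plus strand): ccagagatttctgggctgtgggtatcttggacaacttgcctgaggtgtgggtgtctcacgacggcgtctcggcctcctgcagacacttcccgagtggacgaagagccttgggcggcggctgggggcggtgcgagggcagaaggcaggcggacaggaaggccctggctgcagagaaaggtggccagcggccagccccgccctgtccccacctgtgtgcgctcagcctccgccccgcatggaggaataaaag
Krt18 (chr15:102027966-102028215, plus strand): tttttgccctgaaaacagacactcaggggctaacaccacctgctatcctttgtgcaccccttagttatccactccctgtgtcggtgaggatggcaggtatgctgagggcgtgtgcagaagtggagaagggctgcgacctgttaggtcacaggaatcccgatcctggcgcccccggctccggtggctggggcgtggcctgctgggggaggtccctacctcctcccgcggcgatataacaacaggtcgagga
Krt20 (chr11:99438154-99438403, minus strand): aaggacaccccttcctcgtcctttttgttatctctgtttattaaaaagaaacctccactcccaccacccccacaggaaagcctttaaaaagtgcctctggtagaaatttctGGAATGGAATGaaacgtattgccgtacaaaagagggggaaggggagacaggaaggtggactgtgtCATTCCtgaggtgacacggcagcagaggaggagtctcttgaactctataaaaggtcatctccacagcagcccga

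GGAATG was found 3 times in the Krt20 window, starting 139, 134 and 74 bases before the start, with the first and second match overlapping by their shared G, and the last on the opposite strand. It was also found once in the intronic Krt14 window. The windows of Krt7, Krt18, Krt8, Krt23 and Krt5 did not hold these letters. Of 32851 promoter windows of the same length, 12.6% held GGAATG on either strand. The AP-1 word TGANTCA was found in none of the 7 member windows and in 6.75% of all windows. The CDX word TTTATG was found once, on the opposite strand of Krt23, and in 10.8% of all windows. None of these matches overlapped a match of another motif. A match is a run of letters in a short window and not a measured binding site.

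When all kept cells of a library were summed, the simple keratins Krt7, Krt18, Krt23, Krt19 and Krt8 were higher in the Lats-deleted libraries, and so was the stratified keratin Krt14. Krt20 was lower without passing the test, and Krt5 stayed at a few counts in every library. Of the 10 members, 7 had enough counts to be tested, and 6 of these 7 rose, where 15.3% of the 12561 genes tested rose (edgeR quasi-likelihood test, Benjamini-Hochberg adjusted p under 0.05). Of the members tested, 0 fell, where 15.5% of all genes tested fell. The median log2 fold change of the 6 simple keratins was 2.93, beside 0.05 over all genes tested. A member passes the filter on low counts through the group where it is high, so these counts describe the 7 and not the whole list. In a sum over cells, more cells of a type and more RNA per cell cannot be told apart. Values below in CPM are plain library values, with no further scaling unless said otherwise.

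**Figure D1:**
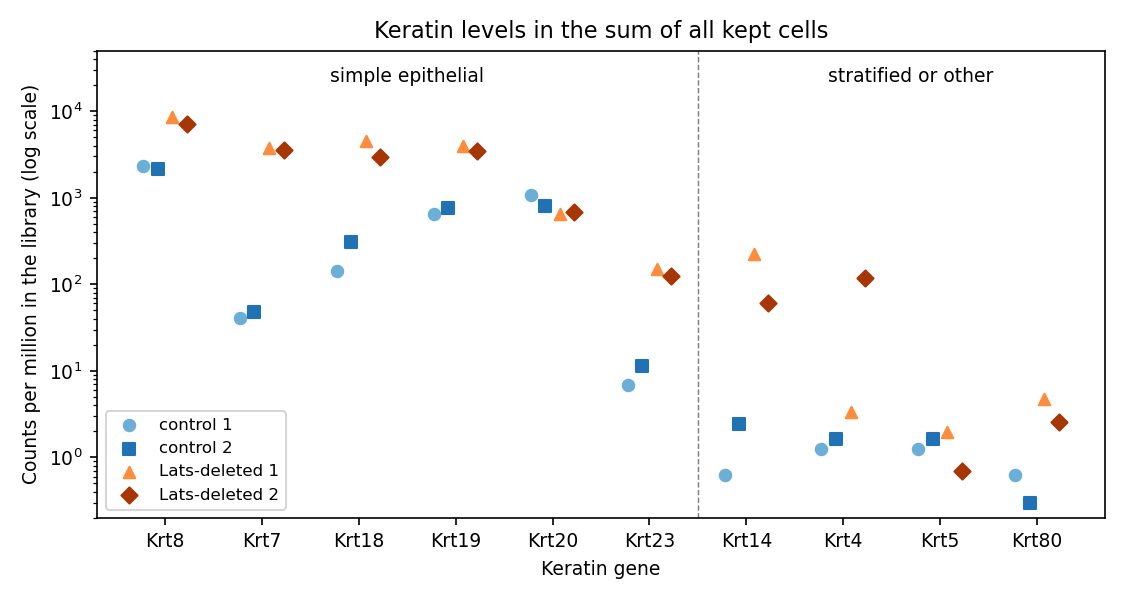
CPM of each keratin gene (x axis) in the sum of all kept cells of each library, on a log axis. Circles and squares are control 1 and control 2, triangles and diamonds are Lats-deleted 1 and Lats-deleted 2, and a library with 0 counts is drawn at 0.3. Both Lats-deleted libraries lie above both controls for Krt8, Krt7, Krt18, Krt19, Krt23, Krt14, Krt4 and Krt80, and below them for Krt20, while Krt4 is far above its controls in Lats-deleted 2 alone.

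Krt7 showed the largest change among the simple keratins. Its level was 41.1 and 47.2 CPM in the controls and 3785 and 3545 CPM after Lats deletion. The groups were far apart and the libraries within each group were close. The log2 fold change was 6.12 (SE 0.27, adjusted p = 0.000183 by edgeR), a 69.7-fold rise. Krt18, the type I partner of Krt8 in many simple epithelia, was at 143 and 309 CPM in the controls, against 4510 and 2996 CPM after Lats deletion. Its 2 controls differed by a larger factor than those of the other simple keratins. The fitted log2 change was 3.81 (SE 0.42; adjusted p = 0.00109 by edgeR). It was 3.42 without control 1 and 4.44 without control 2. Krt8, the main type II keratin of the intestine, was already abundant in the controls, at 2347 and 2148 CPM, and reached 8582 and 7095 CPM. On the log2 scale it rose by 1.55 (SE 0.23; adjusted p = 0.00362 by edgeR), and this call was lost without control 1 (adjusted p = 0.10) or without control 2 (adjusted p = 0.120).

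Krt19, a type I keratin with a short tail that is found in many simple and ductal epithelia, was at 647 and 757 CPM in the controls and at 3951 and 3509 CPM after Lats deletion. This is a log2 change of 2.16 (SE 0.23; adjusted p = 0.000909 by edgeR; without control 1, adjusted p = 0.0581). Krt23 was at 6.86 and 11.4 CPM in the controls, from 11 and 14 counts, and reached 152 and 126 CPM after Lats deletion. Its log2 fold change was 3.70, with an SE of 0.29 (adjusted p = 0.000331 by edgeR). For both genes the groups did not overlap.

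The level of Krt20 was 1071 and 799 CPM in the controls, against 650 and 690 CPM after Lats deletion, so that the groups did not overlap, but the controls differed from each other by more than the gap between the groups. The log2 fold change was -0.74 (SE 0.25, adjusted p = 0.0684 by edgeR), which misses the threshold. The same test called it lower without the 3 clusters led by markers of other tissues (-0.60, adjusted p = 0.0210), with each cell thinned to 1000 counts (-0.77, adjusted p = 0.0330), without Lats-deleted 1 (-0.67, adjusted p = 0.000663) and without Lats-deleted 2 (-0.82, adjusted p = 2.89e-05). It was not called without control 1 (-0.43, adjusted p = 0.507) or without control 2 (-0.94, adjusted p = 0.190).

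Of the stratified keratins, Krt14 had 1 and 3 counts in the controls and 791 and 358 in the Lats-deleted libraries, which is 0.624, 2.44, 222 and 61.4 CPM. The edgeR fit gave a log2 change of 6.33 (SE 0.93; adjusted p = 0.00318 by edgeR; without control 1, adjusted p = 0.0594). With so few control counts the ratio to the summed controls is better given per library: it was 157 in Lats-deleted 1 (95% counting interval 61.2 to 578) and 43.5 in Lats-deleted 2 (16.8 to 160). The Lats-deleted libraries thus differed several-fold from each other. Without the 3 clusters led by markers of other tissues they were closer, at 229 and 128 CPM. Krt5, which pairs with Krt14 in basal layers, had 2, 2, 7 and 4 counts in the 4 libraries, never more than 1 in a cell. Its ratio of summed Lats-deleted to summed control CPM was 0.830 (95% counting interval 0.246 to 3.57), so no change was detectable at this depth.

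Krt4 had 2, 2, 12 and 681 counts, and its level of 117 CPM in Lats-deleted 2 stood against 3.37 CPM in Lats-deleted 1. Of those 681 counts, 66.5% were in the stomach-like cluster 2 and 30.2% in cluster 1, both of which carry stomach genes. Without the 3 clusters led by markers of other tissues Krt4 was at 3.27 and 9.03 CPM after Lats deletion. Krt80 had 1, 0, 17 and 15 counts, a ratio of Lats-deleted to control CPM of 9.65 (95% counting interval 1.61 to 393). Krt4, Krt5 and Krt80 did not pass the filter on low counts. When no filter was used, Krt4 (adjusted p = 0.00384 by edgeR) and Krt80 (adjusted p = 0.0401) were called higher and Krt5 was not (adjusted p = 0.888). The counts of Krt14, Krt5, Krt4 and Krt80 together were 0.0878% and 0.140% of all member counts in the controls and 1.06% and 1.00% in the Lats-deleted libraries.

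As a family, the 10 members took up a larger part of the counts after Lats deletion. They made up 0.426% and 0.408% of all counts in the controls and 2.19% and 1.81% in the Lats-deleted libraries, a 4.80-fold difference of the means. The smallest p that the exact permutation test over the 6 splits of 4 libraries allows is 0.333, and that was its two-sided value. Per cell, the median share was 0.319% and 0.315% in the controls and 2.02% and 1.67% in the Lats-deleted libraries. The 25th percentile of Lats-deleted cells, 1.25% and 1.07%, was above the 75th percentile of control cells, 0.520% and 0.513%. The balance of the 2 types moved little: type II counts were 1.28 and 1.17 times type I counts in the controls and 1.305 and 1.46 times in the Lats-deleted libraries (two-sided exact permutation p = 0.333). Within each type, however, the make-up shifted, as the share of a gene among the counts of its own type shows. Krt7 was 1.72% and 2.15% of type II counts in the controls and 30.6% and 33.0% in the Lats-deleted libraries. Krt20 was 57.3% and 42.5% of type I counts in the controls and 6.85% and 9.35% after Lats deletion. Krt18 went from 7.64% and 16.4% of type I counts to 47.6% and 40.6%, while Krt19 was at 34.6% and 40.3% in the controls and at 41.7% and 47.5% in the Lats-deleted libraries. These shares compare libraries and not the amounts of protein or of molecules per gene, since counts are not scaled for how well each transcript is captured.

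The share of cells with a count was compared after every cell had been thinned to 1000 counts, because Lats-deleted cells were deeper. Both Lats-deleted libraries lay above both controls for 7 of the 10 members, where this held for 29.9% of all genes with a count. Both lay below both controls for Krt20 and for Krt5, which had 1 thinned cell in each control, where this held for 17.7%. The exact permutation test gave p = 0.333, the smallest it allows, for the 9 members whose groups did not overlap, and p = 1 for Krt4, so no member passes a threshold here before or after adjustment over the 10. Krt7 was found in 2.84% and 4.27% of control cells (95% Clopper-Pearson intervals 1.79 to 4.27% and 2.70 to 6.40%) and in 79.1% and 87.3% of Lats-deleted cells. Krt18 was found in 6.72% and 10.7% against 82.0% and 84.3%, and Krt19 in 38.6% and 39.0% against 85.4% and 89.8%. Krt8 was near its ceiling already, at 79.2% and 75.3% against 91.2% and 96.8%. A share of cells with a count includes counts from free RNA, for which a background is given below.

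Krt20 was found in 41.1% and 36.5% of thinned control cells and in 25.1% and 29.3% of thinned Lats-deleted cells. Krt23 was found in 0.388% and 0.583% of control cells and in 11.7% and 10.3% of Lats-deleted cells. Krt14 was found in 0 of 774 and 0 of 515 thinned control cells, which by a limit of 3 cells allows shares with a count of up to 0.388% and 0.583% (upper Clopper-Pearson bounds 0.476% and 0.714%) and sets no limit on cells that express the gene. It was found in 14.2% and 3.57% of Lats-deleted cells (intervals 11.7 to 16.9% and 2.62 to 4.73%). As deposited, Krt14 had a count in 27.3% and 7.76% of Lats-deleted cells. Few cells held much of Krt14: 34 cells of Lats-deleted 1 and 12 cells of Lats-deleted 2 held 50% of its counts. For Krt7, which had far more counts, it was 105 and 235 cells. For Krt20 it was 31 and 78 cells, and for Krt23 43 and 101. In Lats-deleted 1 Krt14 was thus no more concentrated than Krt20. Krt4 was found in 0.258%, 0.194%, 0.138% and 9.0% of the cells of the 4 libraries. These intervals cover counting error only.

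**Figure D2:**
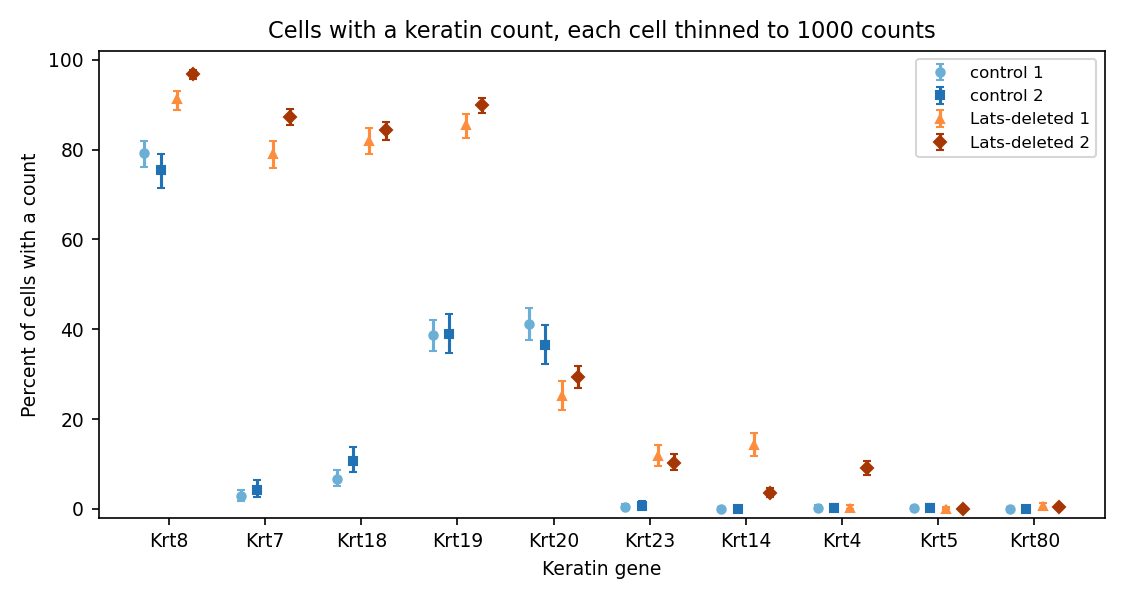
Percent of cells with at least 1 count of each keratin gene (x axis) after each cell was thinned to 1000 counts, by library. Points are shares and bars are 95% Clopper-Pearson intervals, which cover counting error only. Krt7 and Krt18 lie below 11% in both controls and above 79% in both Lats-deleted libraries, and Krt14 is seen in 14.2% and 3.57% of Lats-deleted cells.

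Free RNA can place counts in cells that do not express a gene. In barcodes with fewer than 300 counts, which are not kept cells, Krt7 was at 33.9 and 29.4 CPM in the controls and reached 2033 and 3834 CPM after Lats deletion. The stromal-like cluster gives a second measure, though an imperfect one, since it also carried mesothelial markers and mesothelial cells are known to make Krt7, Krt8, Krt18 and Krt19. In the 71 stromal-like cells of Lats-deleted 1, with a median of 2453 counts, Krt8 was at 386 CPM, Krt7 at 259, Krt18 at 402 and Krt19 at 555 CPM, and Krt20 had no count. After thinning, 28.2% of these cells had a count of Krt8, 16.9% of Krt7, 28.2% of Krt18 and 29.6% of Krt19. The other clusters of that library with at least 20 cells held 8394 to 10087 CPM of Krt8 and 1744 to 4756 CPM of Krt7. Krt14 differed from this pattern: it was at 106 CPM in the stromal-like cells and at 104 to 320 CPM in the other clusters of the same library. How much of the Krt14 in stromal-like cells is free RNA was not tested.

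Clusters were made without keratin genes, so that levels could be read across cell states. A cluster is named "-like" where markers of 1 cell type led it, and levels by cluster are descriptions with no test. In the controls, Krt20 rose from stem-like through villus bottom-like and enterocyte-like to villus tip-like cells. Among these clusters Krt19 was highest in villus bottom-like cells and lowest in villus tip-like cells. The 2 enterocyte-like clusters share a name, and no marker rule sets their order. Krt20 was at 34.0 and 38.7 CPM in stem-like cells (cluster 9), 200 and 316 in villus bottom-like cells (cluster 8), 555 and 442 and then 841 and 779 in the 2 enterocyte-like clusters (3 and 4), and 3406 and 2936 CPM in villus tip-like cells (cluster 6). Villus tip-like cells were 19.0% and 14.6% of control cells and held 60.0% and 41.4% of their Krt20 counts. Krt19 was at 1054 and 1006 CPM in stem-like cells and in villus bottom-like cells at 1627 and 1836 CPM. It was at 179 and 217 CPM in villus tip-like cells. Both controls gave the same order for Krt20, with neighbouring clusters further apart than the 2 libraries were.

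**Figure D3:**
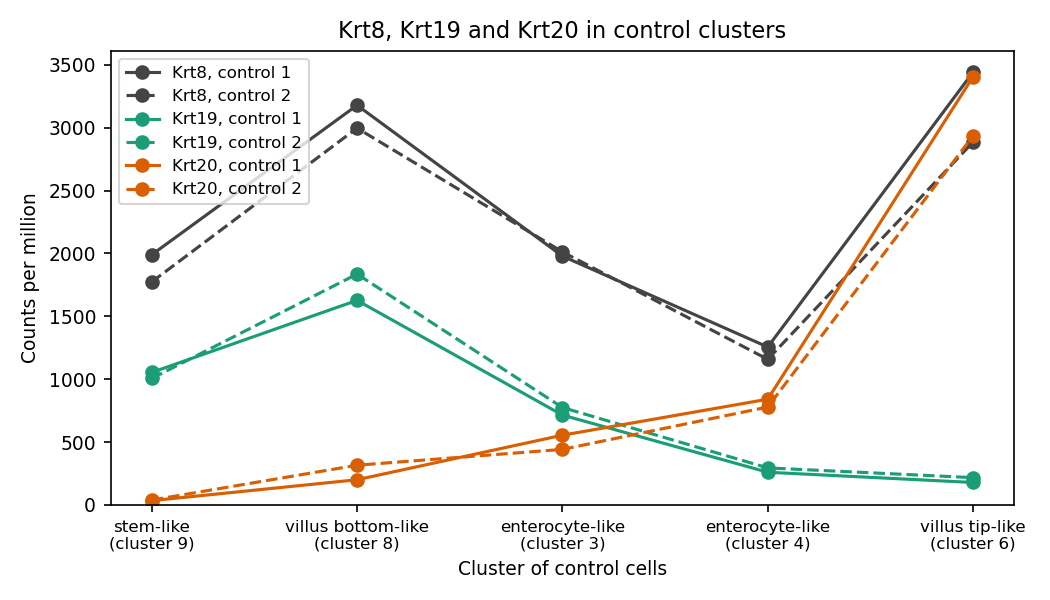
CPM of Krt8 (grey), Krt19 (green) and Krt20 (orange) in 5 clusters of control cells, with control 1 as solid and control 2 as dashed lines. Krt20 is at 34.0 and 38.7 CPM in stem-like cells and at 3406 and 2936 CPM in villus tip-like cells, while Krt19 peaks in villus bottom-like cells at 1627 and 1836 CPM.

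Krt8 was less variable across control clusters of at least 20 cells in a library, from 1158 CPM in enterocyte-like cluster 4 to 3442 CPM in villus tip-like cells. Krt7 and Krt18 had their own places in the control epithelium. Goblet-like cells (cluster 11, which also carried Paneth cell genes) had 234 and 243 CPM of Krt7, against 2.77 to 51.6 CPM in the other control clusters of at least 20 cells, and held 43.9% and 53.5% of the control Krt7 counts. They had 507 and 1017 CPM of Krt18. Enteroendocrine-like cells (cluster 14, with tuft cell markers also raised) were only 18 in both controls together. Over those 18 cells Krt18 was at 4742 CPM and Krt8 at 5051 CPM, which is the range of the Lats-deleted clusters, while Krt20 had no count.

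After Lats deletion, most cells fell in clusters with few or no control cells, and Krt8, Krt7, Krt18 and Krt19 were high in nearly all of them. Leaving out the stromal-like cells, Krt7 was at 1744 to 5516 CPM, Krt18 at 1895 to 6188 and Krt19 at 2324 to 4779 CPM in the 11 library and cluster sums with at least 20 cells. Regenerative-like cells (cluster 5, led by Ankrd1 and Thbs1) had the highest Krt8, at 10087 and 10921 CPM, and the highest Krt18, at 6188 and 5763 CPM. Cluster 10, led by Wfdc18 and including Duox2, was low in Krt7, at 1744 and 2810 CPM, but not in Krt8, at 8615 and 9234 CPM. Cluster 1 had the lowest Krt8 of these sums, at 4117 CPM. High Krt8, Krt7, Krt18 and Krt19 were thus seen in many cell states, at levels that differed among them.

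Krt20 and Krt14 varied more between Lats-deleted clusters than Krt8, Krt7, Krt18 and Krt19 did. Krt20 was high in cluster 7, led by Reg3b and Clca4a, at 1628 and 2147 CPM, in cluster 10 at 1202 and 1071 CPM, and in the stomach-like cells at 1262 CPM. It was low in cluster 0, led by Fbln2 and Flnc, at 232 and 188 CPM, in regenerative-like cells at 267 and 211 CPM and in cluster 1 at 58.6 CPM. Krt14 had its highest levels in clusters where Krt20 was low, but the 2 were not mirror images. It was at 302 and 204 CPM in cluster 0 and at 320 and 162 CPM in regenerative-like cells. Cluster 10, high in Krt20, had 138 and 95.6 CPM of Krt14, and cluster 1 was low in both. Cluster 7 had 104 and 31.7 CPM of Krt14, cluster 1 had 4.59 and the stomach-like cells 22.9 CPM. Over the 24 library and cluster sums with at least 20 cells, Krt20 and Krt14 correlated at r = -0.153, given as a description. Clusters 0 and 5 together held 77.5% and 71.8% of the Krt14 counts of the 2 libraries, and 53.0% and 24.1% of their cells. Cluster 0 had fewer counts per cell than most, with medians of 2386 and 2612.

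**Figure D4:**
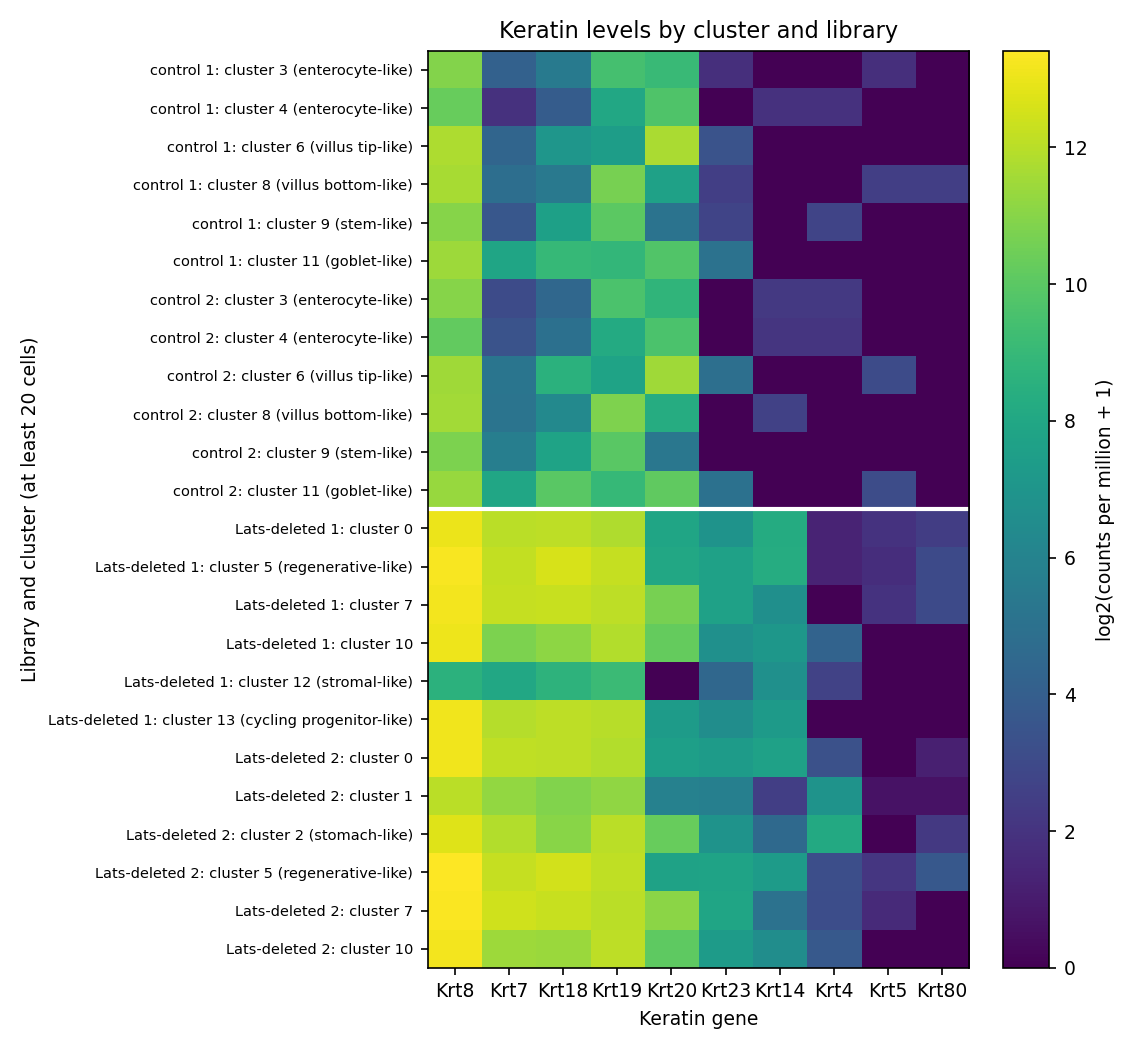
Levels of the 10 keratin genes (columns) in each cluster of each library with at least 20 cells (rows), as log2(CPM + 1), with controls above the white line. Krt7, Krt18 and Krt19 are bright in every Lats-deleted row other than the stromal-like one, Krt20 is brightest in control villus tip-like cells, and Krt4 is bright only in clusters 1 and 2 of Lats-deleted 2.

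Within single cells, Krt7 and Krt20 were found together about as often as the product of their shares. After thinning, Krt7 and Krt20 were both found in 20.8% and 26.2% of Lats-deleted cells, beside 19.8% and 25.6% if the 2 were placed independently. Of the Lats-deleted cells with Krt20, 151 of 182 and 338 of 378 also held Krt7, which 79.1% and 87.3% of all Lats-deleted cells held. Free RNA, given above for Krt7, adds to such shares, and its part was not tested. Without the 10% of cells with the most counts in each library, where doublets would be most frequent, the shares with both were 20.4% and 26.5%. In the controls only 9 and 12 cells held both. Of the cells with Krt14, 95 of 103 and 45 of 46 also held Krt7, which is 13.1% and 3.49% of Lats-deleted cells, beside 11.2% and 3.12% from the product. Krt14 and Krt20 were both found in 2.48% and 1.09% of Lats-deleted cells, beside 3.56% and 1.05% from the product of their shares. No thinned cell of any library held both Krt5 and Krt14.

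Leaving out the 3 clusters led by markers of other tissues, the 97 and 34 Lats-deleted cells with a Krt14 count after thinning were compared with the 553 and 518 without. CPM in this comparison are of the thinned counts. Krt20 was at 289 and 412 CPM in the cells with Krt14 and at 718 and 753 CPM in those without. Krt7 was at 4536 and 5294 CPM against 3432 and 3944, and Krt8 at 9763 and 12324 against 8161 and 8755 CPM. Krt18 was at 5351 and 4912 CPM against 4298 and 4054, and Krt19 at 4041 and 4147 against 3872 and 3687. Krt23 went the other way, at 92.8 and 147 CPM against 174 and 185. Cells with Krt14 thus had more Krt7, Krt8 and Krt18 in both libraries. The Krt19 values lay close together, and those of Krt23 rest on few thinned counts, so neither is read as a difference. Over the 24 library and cluster sums, Krt23 and Krt14 correlated at r = 0.79. These are descriptions of cells within a library and carry no test.

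In the less mature cells, all 7 members tested were higher after Lats deletion, Krt20 among them. Stem-like and cycling progenitor-like cells numbered 85 and 65 in the controls and 28 and 20 in the Lats-deleted libraries. All of these control cells were in cluster 9 and most of the Lats-deleted ones were in cluster 13. That cluster is led by cell cycle genes and had no control cell. Cluster 1, which had cycling markers raised but no name, is not in this class. Its 374 cells of Lats-deleted 2 were at 4117 CPM of Krt8, 2457 of Krt7 and 58.6 of Krt20. Of 3111 genes tested in this class, 18.6% rose. Krt14 had no control count here and Krt23 had 1 and 0. Both passed the filter on low counts through the Lats-deleted libraries, where they are high, so the 7 are not set against that share. Krt7 was at 11.3 and 51.6 CPM in the controls and at 3694 and 3300 CPM after Lats deletion, and its fitted log2 fold change was 6.76 with an SE of 0.32 (adjusted p = 3.74e-16 by edgeR). Leaving out control 2 raised that value to 8.05, and leaving out control 1 lowered it to 5.96. Cluster 13 carries the class value. The 11 Lats-deleted cells that fell in stem-like cluster 9 with the controls were at 286 CPM of Krt7 (8 counts), 607 of Krt18 and 2965 of Krt8, against 30.2, 208 and 1889 CPM in the 150 control cells of that cluster, and the 37 cells of cluster 13 were at 3980, 4232 and 9450 CPM. With so few cells in cluster 9 this contrast was not tested. Over the class, Krt18 rose by 4.10 on the log2 scale (SE 0.22), Krt8 by 2.16 (SE 0.17) and Krt19 by 1.90 (SE 0.18). Krt20 was at 34.0 and 38.7 CPM, from 6 counts in each control, and at 155 and 234 CPM, from 23 and 21 counts. The log2 change there was 2.30 (SE 0.51; adjusted p = 0.000661 by edgeR), opposite in sign to that in the sum of all cells. Krt14 had 0 counts in both controls and 22 and 7 in the Lats-deleted libraries. Against a floor of 3 counts over the control cells it was at least 13.5-fold higher in the summed Lats-deleted cells. Its level there was 148 and 78.0 CPM, beside 162 and 60.2 CPM in barcodes under 300 counts of the same libraries. The part of free RNA in this rise was not tested.

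In cells with an enterocyte programme, 1 of the 5 members tested passed, and the number of cells limits what could be called. The enterocyte-like clusters alone held 379, 237, 23 and 16 cells, too few in Lats-deleted 2, so villus tip-like and villus bottom-like cells were added to them after the data had been seen, which gave 625, 398, 40 and 22 cells. Of 5869 genes tested, 0.324% rose, and Krt7 was 1 of them. Krt7 was at 15.6 and 18.4 CPM in the controls, against 47.4 and 238 CPM after Lats deletion, from 5 and 15 counts. The fitted rise was 2.81 as a log2 change (SE 0.56; adjusted p = 0.00228 by edgeR). It was 3.63 without Lats-deleted 1 and 1.40 without Lats-deleted 2. The call rests on few counts and was lost with DESeq2 (adjusted p = 0.0666) and when any library other than Lats-deleted 1 was left out. Beside it stands the level of Krt7 in barcodes under 300 counts of the same libraries, 2033 and 3834 CPM, whose part in the result was not tested. Krt8 was at 2321 and 2077 CPM against 2316 and 2751 (log2 fold change 0.16, SE 0.19, adjusted p = 0.925 by edgeR). Krt20 was at 1247 and 900 CPM against 1196 and 1654 (0.35, SE 0.21, adjusted p = 0.725). Krt18 and Krt19 had log2 fold changes of 0.79 (SE 0.41) and 0.60 (SE 0.21) and did not pass either, with adjusted p = 0.656 and 0.287 by edgeR.

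The difference between the 2 classes was tested itself, by adding a term for class and genotype to a fit in which each library was a block. Of the 7 members in that fit, 5 had a smaller change in enterocyte-like and villus-like cells, where 4.84% of the 3888 genes tested had. The difference was -3.87 on the log2 scale for Krt7 (SE 0.60, adjusted p = 1.41e-08 by edgeR), -3.16 for Krt18 (SE 0.42, adjusted p = 9.49e-12), -1.84 for Krt8 (SE 0.26, adjusted p = 4.34e-10), -1.82 for Krt20 (SE 0.51, adjusted p = 0.00463) and -1.15 for Krt19 (SE 0.28, adjusted p = 0.000743). Krt23 and Krt14 had no or 1 count in the Lats-deleted enterocyte-like and villus-like cells and did not pass (adjusted p = 0.133 and 0.259). The difference was -5.59 for Krt7 and -4.15 for Krt18 without Lats-deleted 2, and -2.79 and -2.39 without Lats-deleted 1. Without control 1 none of the 5 passed, and without control 2 Krt18 alone did. The stem-like and progenitor-like cells of the 2 groups are mostly of different clusters, so state and genotype cannot be told apart in this class.

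**Figure D5:**
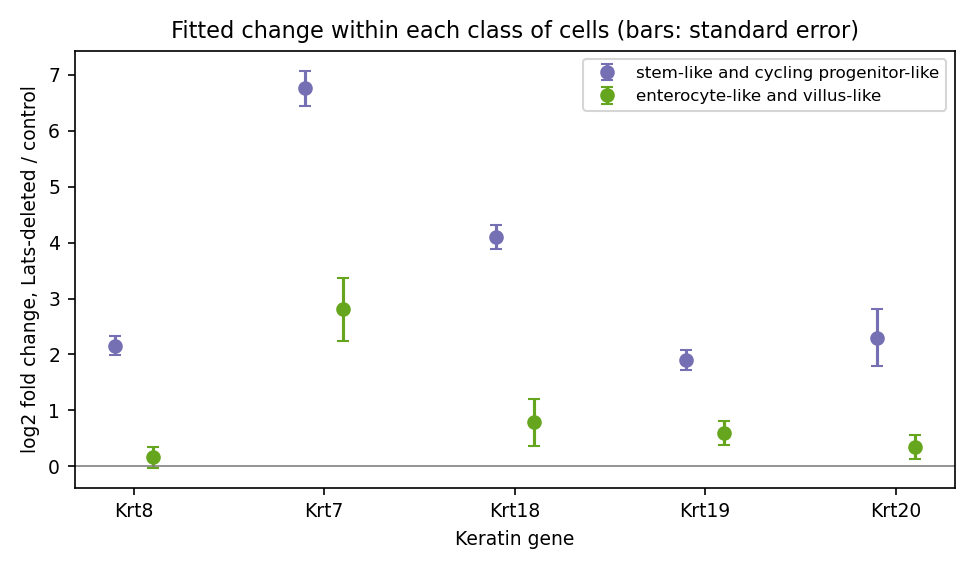
Fitted log2 fold change of Lats-deleted over control for Krt8, Krt7, Krt18, Krt19 and Krt20 in stem-like and cycling progenitor-like cells (purple) and in enterocyte-like and villus-like cells (green), with bars of 1 standard error. All 5 are higher in the first class, from 1.90 for Krt19 to 6.76 for Krt7, and lie between 0.16 and 2.81 in the second.

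The genes whose level ran most like a member's across the 24 library and cluster sums were not keratins by rule, and the correlations are descriptions over sums that share libraries. Krt20 ran with Apobec1 (r = 0.898), an enzyme that edits apolipoprotein B RNA in enterocytes, with Mxd1 (r = 0.865), a partner of MAX that opposes MYC, and with Sdcbp2 (r = 0.845) and Cmpk1 (r = 0.840). Krt7 ran with Anxa3 (r = 0.984), S100a14 (r = 0.975), Plaur (r = 0.974), the receptor of urokinase, and Mboat1 (r = 0.972). Krt14 ran with Prkcdbp (r = 0.926), Ier3 (r = 0.925), Plat (r = 0.923), the tissue plasminogen activator, and Phlda3 (r = 0.919). Among the members themselves, Krt7 ran most closely with Krt18 (r = 0.964) and Krt23 (r = 0.958).

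Keratin filaments are tied to desmosomes, hemidesmosomes and linker proteins, and 17 of the 25 listed anchoring genes were tested. Of these, 7 rose and 0 fell, beside 15.3% and 15.5% of all genes tested, with a median log2 fold change of 0.56. Among the 4 with the smallest p, Ppl, which encodes the linker periplakin, changed most. It was at 4.96 and 4.39 TMM-scaled CPM in the controls and 88.2 and 74.6 in the Lats-deleted libraries (log2 fold change 4.10, SE 0.30, adjusted p = 0.000286 by edgeR). Fam83h rose by 1.45, Dsg2, a desmosomal cadherin, by 1.38 and Itga6, an integrin chain of hemidesmosomes, by 0.91 on the log2 scale. Of the other intermediate filament genes, 4 of 12 were tested and Lmna, Lmnb1 and Vim rose, by 2.23, 2.34 and 5.59. Vim did not pass the filter on low counts once the 3 clusters led by markers of other tissues, stromal-like cells among them, were left out.

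Of 20 listed genes of the cornified envelope and squamous epithelia, 12 were tested, of which 7 rose and 0 fell, again beside 15.3% and 15.5% of all genes. S100a14 rose by 6.41, Scel by 5.64, Sprr1a by 4.49 and Cstb by 2.05 on the log2 scale. All 4 encode proteins of differentiated squamous cells or of the cornified envelope that are also found elsewhere. The 7 squamous cell markers with a column, which include Trp63, Dsg3, Krtdap and Sbsn, summed to 14.3 and 17.1 CPM in the controls and to 46.6 and 20.3 CPM in the Lats-deleted libraries, or 17.3 and 18.9 CPM without the 3 clusters. Of 12 squamous regulators tested, 1 rose and 1 fell, beside 15.3% and 15.5% of all genes tested. Sox21 rose by 4.48, or by 3.52 without the 3 clusters, and Ovol1 fell by 1.84. Sox21 was low, at 1.42 and 0.879 TMM-scaled CPM in the controls and 11.5 and 41.7 in the Lats-deleted libraries. Of 10 intestinal identity regulators tested, 5 fell and 1 rose, where 15.5% and 15.3% of all genes did. Among those that fell were Cdx1 by 3.93, Hnf4g by 2.97, Hnf4a by 1.61 and Gata4 by 1.00 on the log2 scale. Of the 43 other keratin genes, 5 were tested: Krt15 rose (log2 fold change 2.34, adjusted p = 0.0373 by edgeR) from 4 and 2 counts to 66 and 46, and Krt12 fell. The members made up at least 98.0% of all keratin counts in each library.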

How the data were processed

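Single-cell counts were deposited as 1 table per library, in which rows are barcodes and columns are genes by symbol, per the file headers. All deposited counts were whole numbers of at least 0, and they were used as not normalized. Bowtie, SAMtools 1.3.1, RSEM 1.3.0 and mm10 are named with no role, per the submitters' processing notes. How reads were assigned to genes, and whether counts are of molecular tags, is not given in the sources used here.

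Kept cells were log-scaled and clustered without keratin genes (scanpy 1.11.5, leidenalg 0.10.2, resolution 1, seed 1). Clusters were named from fixed marker lists. The way markers were ranked was set after clusters had been seen and before keratins were compared. Counts were summed per library and tested with edgeR 4.0.16 (quasi-likelihood, TMM, filterByExpr), with p-values adjusted over all genes tested and a threshold of 0.05. Shares of cells were compared after thinning each cell to 1000 counts, and intervals are at 95%. The fits were tested on simulated data with the libraries' sizes and the same spread between libraries for every gene. Rates for genes with a larger spread were not tested. The all-cell fit recovered 96.0% of genes raised by 2 on the log2 scale and the progenitor fit 82.0%. The enterocyte and villus fit recovered 83.3% of these, but 23.8% of genes lowered by 2 and 51.1% of those lowered by 4. The enterocyte-like class as designed had under 20 cells in 1 library and was widened.

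The members, lists and tests were chosen with earlier results of these data known. Genes named beside the members are those of each list past the threshold, at most the 4 with the smallest p, and for each of Krt20, Krt7 and Krt14 the 4 non-keratin genes with the highest correlation of log2(CPM + 10) over sums of at least 20 cells, among genes with a mean of at least 20 CPM. Lowly counted keratins outside the members and the rule, such as Krt16 and Krt17, were named after their values were seen. Alternatives were another scaling, test, filter, cell filter, depth, clustering and a replicate block, and leaving out each library.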

Additional observations from a re-analysis of the deposited data

Results flagged for a closer look

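The change with Lats deletion differed between classes of cells for 5 keratins, by the test of the difference itself. Set against stem-like and cycling progenitor-like cells, the log2 change in enterocyte-like and villus-like cells was lower for all 5: the difference was -1.84 for Krt8, -3.87 for Krt7, -3.16 for Krt18, -1.15 for Krt19 and -1.82 for Krt20. The term is fitted on 28 and 20 progenitor cells and 40 and 22 enterocyte and villus cells of the Lats-deleted libraries. The progenitor cells of the 2 groups are mostly of different clusters, so state and genotype cannot be told apart in that class. Most of these calls were lost when either control was left out, as given above.

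A signal also appeared in barcodes outside the kept cells. In barcodes with fewer than 300 counts, Krt7 was at 2033 CPM in Lats-deleted 1 and at 3834 CPM in Lats-deleted 2, against 33.9 and 29.4 CPM in the controls. Krt14 was at 162 and 60.2 CPM in the same Lats-deleted barcodes, and Krt4 at 0 and 95.8 CPM.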

How the results depend on the processing

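Leaving out 1 library at a time leaves an arm with 1 library, which is assumed to vary like the other group. The number of members called higher in all cells was then 3 to 7, with the lowest value without control 1, and the number of genes called was 1228 to 5387 (1228 without control 1 and 1478 without control 2, from 3869). The number of members that passed the filter on low counts changed as well. In progenitor-like cells all members tested stayed called. In enterocyte-like and villus-like cells the call of Krt7 depended on which library was left out, and with DESeq2 no member was called. There the log2 fold change of Krt8 ran from -0.0125 without Lats-deleted 2, the reverse of its sign otherwise, to 0.2304 without control 1. The number of members with a smaller change in that class was 0 to 5. The cause was not tested. Without a filter on low counts 8 members were called higher. Library totals without TMM moved the median of all genes from 0.05 to 0.30 on the log2 scale and the split from 1923 higher of 3869 genes called to 2772 of 4347; the 6 members stayed called. No filter gave 2712 of 4410. The difference in the share of cells changed sign for Krt5 with cells as deposited (0.31 percentage points) and for Krt4 without Lats-deleted 2 (-0.0885 percentage points, against 8.77 without Lats-deleted 1). The labels number the libraries but do not say that numbers pair them. Deviations of same-numbered libraries correlated at 0.04. With a replicate block 6 members and 4162 genes were called in all cells, 7 members in progenitor-like cells and 1 in enterocyte-like and villus-like cells, so no count of members changed. The planned settings not run were these: the enterocyte-like class alone, and progenitor-like cells with keratins kept in the clustering, where Lats-deleted 2 held 16 and 19 cells. At resolution 2 the progenitor class took 217 cells of Lats-deleted 2, and 5 of 5 members tested were called. Krt23 and Krt14 were not tested there. The log2 fold change of Krt20 was then 1.56 (adjusted p = 0.0321 by edgeR), against 2.30 in the main clustering, and that of Krt8 1.81 against 2.16. At this depth Krt5 and Krt80, and Krt14 in the controls, rest on a handful of counts.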

Other observations

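Krt12, a keratin known from the cornea, fell in the Lats-deleted libraries (log2 fold change -3.58, SE 0.45, adjusted p = 0.00173 by edgeR), from 27 and 14 counts in the controls to 5 and 8. Of the control counts in clusters of at least 20 cells, most were in villus tip-like cells, with 30 counts and 73.2% of the control total. Villus tip-like cells were also the highest in Krt20, at 3259 CPM over both controls, against 36.2 CPM in stem-like cells, where Krt12 had 1 count. In GENCODE M21 on GRCm38, Krt12 lies at chr11:99415666-99422259, on the same strand as Krt20 and downstream of it, with 6143 bases and no annotated gene between the 2. Krt12 was singled out after its values had been seen.

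In the few Lats-deleted cells of other named clusters, summed over both libraries, the keratin levels lay apart from those of the large Lats-deleted clusters. The 7 goblet-like cells had 1079 CPM of Krt7, against 238 CPM in the 96 goblet-like control cells, and 1779 against 766 CPM of Krt18. The 17 enteroendocrine-like cells had 1309 CPM of Krt7 against 258 CPM in 18 control cells, but 1400 CPM of Krt18 against 4742 and 2945 CPM of Krt8 against 5051. These sums are too small for a test. Barcodes under 300 counts of the Lats-deleted libraries held 2033 and 3834 CPM of Krt7 and 2761 and 3648 CPM of Krt18. The part of that free RNA in the values of these few cells was not tested.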
